A study of Mus musculus with 6 samples.

Results

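The 54 regions described here belong to 52 genes of the Wnt pathway, chosen by symbol from a deposited methylation table of 10755 regions of 3000 bp. Earlier results of these data were known when the symbols were chosen. They hold ligands, Frizzled and Lrp receptors, secreted antagonists, the R-spondin axis, Dishevelled proteins, the destruction complex, beta-catenin with a partner, and the nuclear TCF/LEF factors. A region was kept when it held at least 3 measured positions, which 10021 regions of the table did. Regions of 5 further transcripts (Dvl2, Sfrp4, Rspo3, Ctnnbl1 and a second one of Tcf7l2) had 2 positions each and were left out, and 0 matching regions lay on the X chromosome. Symbols of 2 members were caught by the name pattern although they are no core Wnt component: Apcdd1 encodes a membrane inhibitor of Wnt signalling and Dkkl1 a testis protein related to the Dickkopf antagonists.

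DNA came from quadriceps muscle of C57BL/6 mice. The 3 exercised samples were from mice trained by running on a treadmill with a motor for 4 weeks, with tissue taken 3 hours after the final bout, and the 3 sedentary samples were from mice without training. The labels state neither age nor sex. They also do not say whether samples of a group are separate animals, and p-values then cover only the spread among these 6 libraries, which may be technical. Whole muscle also holds nerve, vessel, fat and connective tissue cells, so that a change of methylation within cells and a change in the mix of cells cannot be told apart. Of 13 muscle fibre markers only Acta1, Des and Pvalb had a tested region, so the tissue label could not be checked from methylation at these promoters.

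Wnt ligands are secreted, lipid-modified glycoproteins that bind Frizzled receptors together with the co-receptors Lrp5 or Lrp6. Without ligand, a complex built on Axin and Apc marks beta-catenin for destruction, and with ligand, Dishevelled proteins take that complex out of action, so that beta-catenin reaches the nucleus and acts with TCF/LEF factors. In skeletal muscle the pathway is known for its part in embryonic muscle formation, in satellite cells during regeneration and at the neuromuscular junction. Methylation of a CpG-rich promoter usually goes with a silent gene.

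Reduced representation bisulfite sequencing (RRBS) reads a methylated cytosine as C and an unmethylated one as T in fragments cut by a restriction enzyme at a CpG-containing sequence. The level of a position is the percentage of its reads that are methylated, and the level of a region is the percentage over all reads of its listed positions. The deposited coordinates are in build mm9. Within the 54 regions there were 1869 of the 268725 listed positions, with 3 to 104 per region and a median of 33, against a median of 19 over all tested regions. Median coverage in them was 47, 54 and 54 reads for exercised samples 1 to 3 and 49, 63 and 29 reads for sedentary samples 1 to 3, so sedentary sample 3 was the shallowest.

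Promoter sequences show where the measured cytosines sat. A RefSeq promoter window (build GRCm38.p6) of 300 bases, from 250 upstream to 50 downstream of the start, was found for 35 of the 52 genes. Listed positions were laid on the CG dinucleotides of these windows by their spacing, without converting coordinates. Over the whole table, 2341 regions could be laid at a single offset, and in 1961 of them (83.8%) the start site lay within 50 bases of a point 2000 bases from the region's upstream edge. In that way 401 positions of 23 Wnt gene regions were placed. The 250 bases upstream of the start follow for 5 members. Dvl1 and Rspo4 lead the differences in either direction, Wnt4 is a ligand with many measured positions there, and Wnt3a and Fzd5 stand for a further ligand and a receptor. Each is written 5′ to 3′ on the gene's strand, and capitals mark CCGG, the sequence that the enzyme MspI cuts.
Dvl1 (chr4:155847152-155847401, plus strand): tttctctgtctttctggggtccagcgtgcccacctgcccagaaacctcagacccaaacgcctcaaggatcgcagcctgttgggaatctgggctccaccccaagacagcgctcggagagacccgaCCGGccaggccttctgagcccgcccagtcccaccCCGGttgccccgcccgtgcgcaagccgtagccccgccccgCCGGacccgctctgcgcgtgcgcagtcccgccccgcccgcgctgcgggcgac
Rspo4 (chr2:151842677-151842926, plus strand): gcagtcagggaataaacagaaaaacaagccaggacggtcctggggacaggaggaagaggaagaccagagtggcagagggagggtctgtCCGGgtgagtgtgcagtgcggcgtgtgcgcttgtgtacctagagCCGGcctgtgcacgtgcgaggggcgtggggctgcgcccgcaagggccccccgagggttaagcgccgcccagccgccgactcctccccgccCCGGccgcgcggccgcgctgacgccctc
Wnt4 (chr4:137277385-137277634, plus strand): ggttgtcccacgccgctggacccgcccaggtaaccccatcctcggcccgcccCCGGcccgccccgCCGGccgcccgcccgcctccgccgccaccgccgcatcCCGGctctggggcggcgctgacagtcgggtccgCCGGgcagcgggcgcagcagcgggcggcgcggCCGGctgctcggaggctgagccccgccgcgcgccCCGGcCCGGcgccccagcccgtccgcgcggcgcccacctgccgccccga
Wnt3a (chr11:59290752-59291001, minus strand): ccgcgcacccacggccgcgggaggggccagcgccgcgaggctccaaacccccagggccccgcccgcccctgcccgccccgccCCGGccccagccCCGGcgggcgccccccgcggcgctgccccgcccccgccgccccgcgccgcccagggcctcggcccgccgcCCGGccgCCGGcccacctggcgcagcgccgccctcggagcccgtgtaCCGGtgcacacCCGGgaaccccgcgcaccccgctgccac
Fzd5 (chr1:64737751-64738000, minus strand): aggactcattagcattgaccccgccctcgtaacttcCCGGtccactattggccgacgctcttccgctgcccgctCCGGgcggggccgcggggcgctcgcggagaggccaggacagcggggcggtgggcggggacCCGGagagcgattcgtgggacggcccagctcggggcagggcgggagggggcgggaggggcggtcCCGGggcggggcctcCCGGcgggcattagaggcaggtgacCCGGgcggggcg

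The capitals divide the measured cytosines of these promoters into a methylated and an unmethylated class. In the Rspo4 stretch, the 5 measured positions at CCGG had levels from 10.4% to 100%, with a median of 98.6%, and the other 18 measured positions ranged from 0.192% to 8.26%, with a median of 1.5%. In the Wnt4 stretch, 8 positions at CCGG lay between 16.2% and 89.1%, and 32 others lay between 0% and 5.36%. For Dvl1, 4 positions at CCGG lay between 22.2% and 85.2% and 15 others between 0% and 2.97%. Wnt3a had 4 such positions between 12.9% and 99.7% beside 13 others of at most 5.21%, and Fzd5 had 6 between 20.3% and 100% beside 11 others of at most 5.42%. In each of these 5 stretches the lowest level at CCGG was above the highest level elsewhere.

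The same division held across the 23 placed Wnt promoters. The 94 positions at CCGG had a median level of 60.0%, the 11 at TCGA, which the enzyme TaqI cuts, had a median of 70.2%, and the 296 at any other CpG had a median of 1.43%. Of those 296 positions 2 (0.676%) reached 10%, at Wnt2b and Tcf7l1, against 103 of the 105 at the enzyme sequences. Over all 3279 placed regions of the table the medians were 68.3% at 11176 CCGG positions, 70.6% at 1069 TCGA positions and 1.40% at 32063 other positions. Both tetramers read the same on either strand. CCGG occurred in 84.1% of the 44 promoter windows of Wnt genes and in 52.8% of all 32851 windows, and TCGA in 25% and 22.0%. The Wnt windows also held more CG dinucleotides, with a median of 29 against 7 over all windows. The labels name no enzyme for these libraries, and why levels are high at these sequences was not tested.

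**Figure D1:**
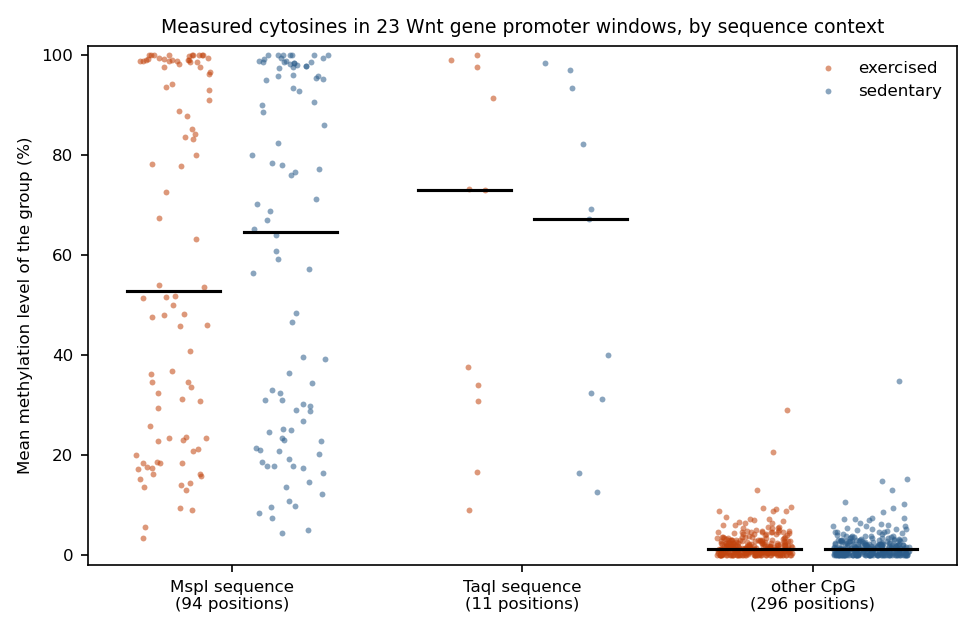
Mean level of each placed cytosine in 23 Wnt gene promoter windows, exercised (orange) and sedentary (blue), grouped by whether its CpG lies in the sequence cut by MspI (94 positions), by TaqI (11 positions) or elsewhere (296 positions), with black bars at the medians. Points at the enzyme sequences spread up to 100%, and the other CpGs lie near 0% in both groups.

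At CCGG the mean level over the 94 positions was 60.8%, 57.8% and 59.0% for exercised samples 1 to 3, against 58.6%, 60.2% and 58.2% for sedentary samples 1 to 3. At other CpGs it was 1.80%, 2.62% and 1.86% in exercised and 2.32%, 1.86% and 1.48% in sedentary samples. At TCGA it was 60.3%, 61.3% and 59.1% in exercised samples, against 58.4%, 66.1% and 50.2% in sedentary samples. The samples of the groups overlapped in these means in all 3 classes. The median over the positions was 52.8% in exercised and 64.6% in sedentary samples at CCGG, 73.0% in exercised and 67.3% in sedentary samples at TCGA, and 1.25% in exercised and 1.13% in sedentary samples at the 296 other positions. Levels at CCGG were widely spread, with quartiles of 23.1% and 96.8%, so their median can shift while the mean does not. The mean there was 59.2% ± 1.51 in exercised and 59.0% ± 1.08 in sedentary samples.

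Single strands carried much of the signal. The 2 cytosines of a CpG, one on each strand, were both listed for 636 CpGs of Wnt gene regions. Both strands were under 10% in 449 of them (70.6%), both were at 50% or more in 20 (3.14%), and the strands differed by at least 50 points in 125 (19.7%). Over all tested regions these shares were 68.2%, 4.93% and 20.1% of 89426 CpGs. In the Rspo4 stretch printed above, the CCGG at 161 bases upstream read 10.4% on the C of the gene's strand and 100% on the opposite strand, and that at 27 bases upstream read 13.6% and 98.6%.

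Most measured cytosines of Wnt genes were nearly unmethylated in the muscle samples. Of the 1869 positions, 1343 (71.9%) had a mean level under 10%, against 69.0% of all positions. Of the 526 at 10% or more, 445 (84.6%, against 80.1% over the table) were stand-alone positions, defined as positions at 10% or more whose listed neighbours within 100 bp have a median level under 10%. Where positions could be placed, 87 of 88 stand-alone positions (98.9%) lay at CCGG or TCGA. Region levels are given with all positions and again without stand-alone positions.

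With all positions the median level of the 54 regions was 19.4%, and over all 10021 regions 22.0%. Without stand-alone positions these medians were 2.25% and 2.50%, and 43 of the 54 Wnt gene regions were under 10% and 36 under 5%. Per sample, the median over the 54 regions with all positions was 20.2%, 20.1% and 18.8% in exercised and 20.2%, 18.5% and 19.3% in sedentary samples. In the same order, without stand-alone positions it was 3.16%, 3.15% and 2.24% in exercised and 3.36%, 2.57% and 2.83% in sedentary samples. In regions whose gene strand was known, positions that were not stand-alone were grouped by distance from the start. Within 500 bases of it, 38 of 762 positions in 35 regions reached 10% (4.99%). Further upstream 11 of 55 positions in 6 regions did (20%), and further downstream 14 of 109 in 12 regions (12.8%). Over all regions these shares were 5.73%, 19.4% and 14%.

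**Figure D2:**
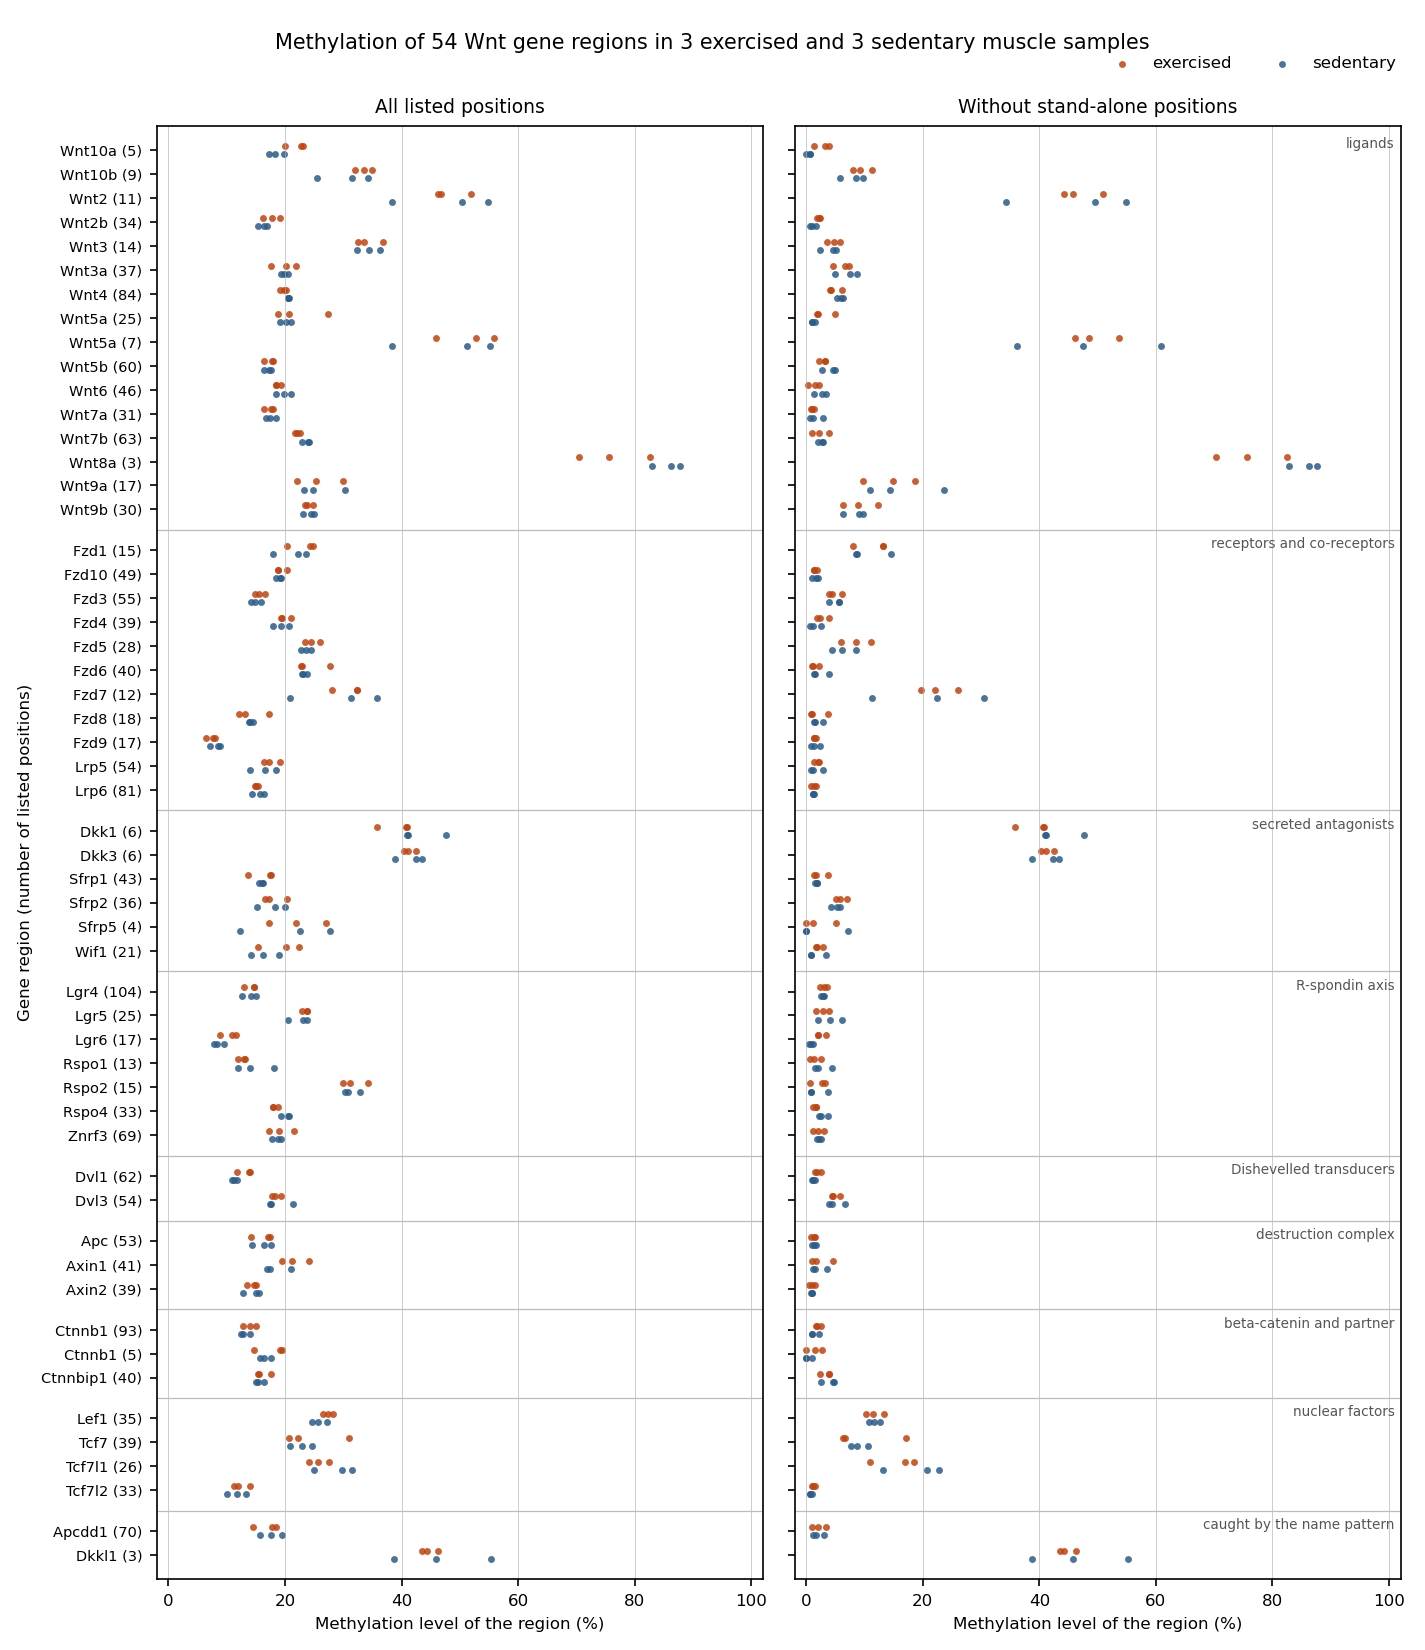
Methylation level of each of the 54 Wnt gene regions in the 3 exercised (orange, upper row of a gene) and 3 sedentary (blue, lower row) samples, ordered by role, with the number of listed positions in brackets, from all listed positions (left) and without stand-alone positions (right). Most regions sit between about 10 and 35% on the left and under 10% on the right, and the points of the groups mostly overlap.

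Ligands (16 regions of 15 genes) had a median level of 22.1%, or 4.85% without stand-alone positions. The highest was Wnt8a, a ligand of early mesoderm patterning, at 76.2% ± 6.12 in exercised muscle and 85.6% ± 2.48 in sedentary muscle (± SD, with n = 3 in each group) over 3 positions, none of them stand-alone. The lowest was Wnt2b, a canonical ligand of eye and limb development, at 17.7% ± 1.51 in exercised and 16.2% ± 0.821 in sedentary samples. Wnt2, a ligand of lung and vessel development, read 48.3% ± 3.06 in exercised and 47.9% ± 8.53 in sedentary samples, and its 9 positions that were not stand-alone still read 47.0% in exercised and 46.2% in sedentary muscle. Wnt5a, the best known non-canonical ligand, has a region of 25 positions that read 2.92% in exercised and 1.17% in sedentary muscle without stand-alone positions, and another, keyed to a further transcript and starting 5932 bases away on chromosome 14, of 7 positions, that read 49.4% in exercised and 48.2% in sedentary muscle in the same setting. Wnt8a, Wnt2 and the Wnt5a region of 7 positions were thus the ligand regions above 30% without stand-alone positions. In that Wnt5a region the strands of a CpG read 38.5% and 97.1%, and those of another 98.5% and 27.2%. In Wnt2, positions with few or no listed neighbours read 97.8%, 98.6% and 99.1%, beside others at 8.07%, 12.6% and 38.3%. Wnt2 positions near the start that were not stand-alone read from 0.303% to 1.18%. With so few neighbours, high positions could escape the stand-alone definition.

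Receptors and co-receptors (11 regions) had a median level of 19.1%, or 1.86% without stand-alone positions. Fzd7, a Frizzled that binds Wnt7a on satellite cells, was highest at 30.9% ± 2.48 in exercised and 29.4% ± 7.64 in sedentary samples. Fzd9 was lowest of all 54 regions, at 7.39% ± 0.833 in exercised and 8.14% ± 0.914 in sedentary samples. The co-receptors Lrp5 and Lrp6 read 1.84% and 1.21% in exercised and 1.65% and 1.20% in sedentary samples without stand-alone positions.

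Secreted antagonists (6 regions) had a median level of 19.7%. Dkk3, a divergent Dickkopf protein, was highest at 41.3% ± 1.09 in exercised and 41.5% ± 2.44 in sedentary samples, close to Dkk1, which binds Lrp5 and Lrp6. Each of these levels came from 6 positions at both strands of 3 CpGs. In Dkk1 the mean levels from first to last position were 15.2%, 99.2%, 1.45%, 3.68%, 97.0% and 15.8% in exercised and 12.5%, 100%, 1.08%, 1.93%, 100% and 35.8% in sedentary samples. Dkk3 likewise had 1 strand at 98.4% or more at 2 of its CpGs in both groups, with the opposite strand between 12.3% and 27.0%. With so few neighbours these positions did not meet the definition of a stand-alone position. Sfrp1, a secreted Frizzled-like decoy, was lowest at 16.2% ± 2.26 in exercised and 16% ± 0.378 in sedentary samples.

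The R-spondin axis (7 regions) holds the R-spondin ligands, their Lgr receptors and Znrf3, a ligase that removes Frizzled from the membrane. Its median level was 19.0%, or 2.14% without stand-alone positions, with Rspo2 highest at 31.8% ± 2.21 in exercised and 31.3% ± 1.39 in sedentary samples, and Lgr6 lowest at 10.5% ± 1.47 in exercised and 8.56% ± 0.844 in sedentary muscle. Without its 7 stand-alone positions, Rspo2 read 2.19% in exercised and 1.77% in sedentary samples. Inside the cell, Dvl3 read 18.5% ± 0.843 in exercised and 18.8% ± 2.25 in sedentary samples and Dvl1 13.2% ± 1.19 in exercised and 11.3% ± 0.415 in sedentary muscle. In the destruction complex, the scaffold Axin1 was highest and Axin2, a scaffold that is itself a Wnt target gene, lowest at 14.5% ± 0.816 in exercised and 14.5% ± 1.43 in sedentary samples. Apc, the tumour suppressor of the same complex, read 1.22% in exercised and 1.34% in sedentary muscle without stand-alone positions.

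Both regions of Ctnnb1, the beta-catenin gene, were low. The one with 93 positions read 13.9% ± 1.09 in exercised and 13.1% ± 0.858 in sedentary samples, the other, with 5 positions, 17.7% ± 2.72 in exercised and 16.6% ± 1.0 in sedentary muscle, and without stand-alone positions they read 2.01% and 1.41% in exercised and 1.40% and 0.344% in sedentary samples. These regions overlap on chromosome 9 with starts 178 bases apart. Nuclear factors (4 regions) had a median of 25.2%, or 10.6% without stand-alone positions. Tcf7l1, a TCF that mostly represses targets, was highest at 25.7% ± 1.76 in exercised and 28.8% ± 3.33 in sedentary samples, and Tcf7l2 lowest at 12.4% ± 1.44 in exercised and 11.7% ± 1.61 in sedentary muscle. Of the 2 genes caught by name, Dkkl1 read 44.7% ± 1.40 in exercised and 46.6% ± 8.28 in sedentary samples over 3 positions and Apcdd1 17.0% ± 2.15 in exercised and 17.6% ± 1.92 in sedentary muscle over 70.

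**Figure D3:**
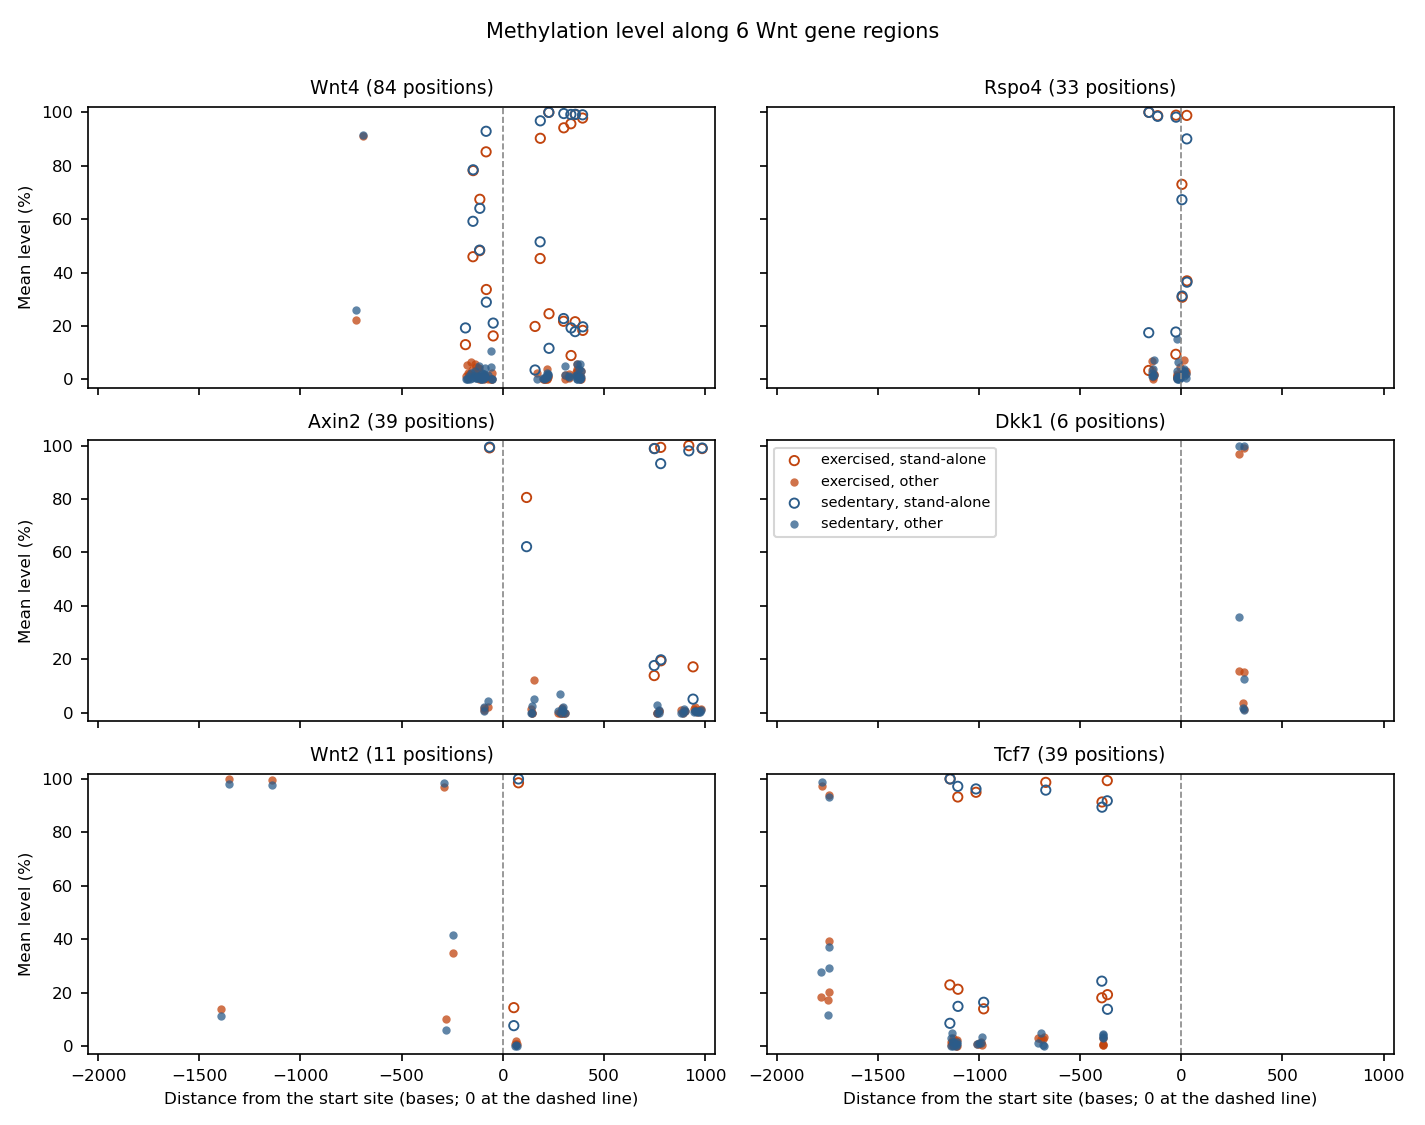
Mean level of each listed position in exercised (orange) and sedentary (blue) samples along the regions of Wnt4, Rspo4, Axin2, Dkk1, Wnt2 and Tcf7, against its distance from the start site in bases (negative upstream; taken as 2000 bases from the region's upstream edge), with stand-alone positions as open circles. Near the start, rows of positions close to 0% are broken by open circles up to 100%, the 6 positions of Dkk1 fall near 0, 15 and 100%, with 1 of them at 35.8% in sedentary samples, and levels of the groups lie close together at most positions.

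No Wnt gene region passed the test for a difference between exercised and sedentary muscle after adjustment. In edgeR's quasi-likelihood test 0 of 54 had an adjusted p under 0.05, as had 0 of all 10021 regions (0%), and limma on M values also gave 0. At an unadjusted p under 0.05, edgeR gave 2 of 54, Dvl1 and Lgr6, both higher in exercised samples, against 2.37% of all regions (1.46% higher and 0.908% lower). At the same limit limma gave 2 others of the 54, Wnt10a and Wnt8a, against 2.82% of all regions. The level was higher in exercised samples in 34 of the 54 regions and lower in 20, against 6117 and 3904 of all 10021 regions. The median difference was 0.363 points (exercised minus sedentary) against 0.390 points over all regions. Without exercised sample 1 these medians turned to -0.179 and -0.00956 points. The 3 exercised samples lay above the 3 sedentary samples in 2 regions and below them in 5, against 7.25% of all regions with no overlap in either direction.

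Without stand-alone positions, 5 of 54 regions had an unadjusted p under 0.05 in edgeR, against 4.53% of the 9707 regions then tested, and 0 passed adjustment, in the Wnt genes as in the table (0%). The 5 were Lgr6, Wnt10a, Wnt2b and a Wnt5a region, with higher levels in exercised samples, and Rspo4, with lower levels. In this setting the sign was positive in 28 regions and negative in 26, against 5546 and 4161 of all 9707 regions. The median difference was 0.0134 points, against 0.176 points over all regions.

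**Figure D4:**
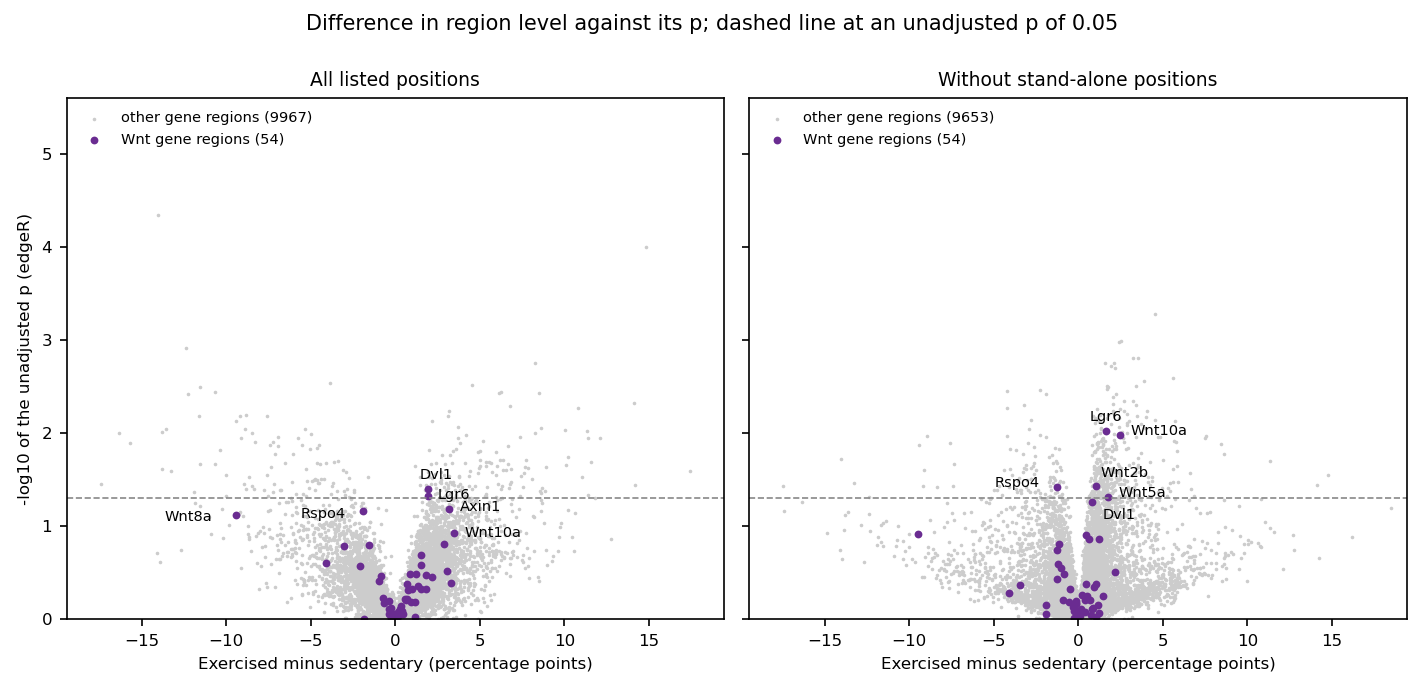
Difference in region level (exercised minus sedentary, percentage points) against -log10 of the unadjusted edgeR p for 54 Wnt gene regions (purple) and all other tested regions (grey), from all listed positions (left) and without stand-alone positions (right). The Wnt gene regions lie inside the grey cloud, and 2 on the left and 5 on the right are above the dashed line at a p of 0.05.

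The differences with the smallest p toward higher levels were those of Dvl1, Lgr6, Axin1, Wnt10a and Wif1. Dvl1, a Dishevelled protein that relays the signal from Frizzled (chromosome 4, 155219521 to 155222520), read 13.8%, 14% and 11.8% in exercised samples 1 to 3, against 11.7%, 11.2% and 10.9% in sedentary samples 1 to 3. The groups did not overlap, although exercised sample 3 and sedentary sample 1 were close. The difference was 1.93 points (SE 0.730, edgeR unadjusted p = 0.0403, adjusted p = 1.0), and 0.825 points without stand-alone positions. The CCGG at 125 bases upstream in the printed Dvl1 stretch read 79.2% in exercised sample 1 and at most 17.4% in the other 5 samples.

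Lgr6, a receptor for R-spondins (chromosome 1, 137000854 to 137003853), read 8.83%, 10.9% and 11.7% in exercised samples, against 7.85%, 8.34% and 9.5% in sedentary samples. The lowest exercised value lay below the highest sedentary one. Its difference was 1.90 points (SE 0.977, edgeR unadjusted p = 0.0480, adjusted p = 1.0). With its 3 stand-alone positions set aside, the 14 others read 2.09%, 2.01% and 3.36% in exercised samples, against 1.16%, 0.501% and 0.881% in sedentary samples, which differ by 1.64 points without overlap (SE 0.479, edgeR unadjusted p = 0.00958, adjusted p = 1.0).

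Wnt10a, a ligand of tooth, hair and adipocyte development (chromosome 1, 74836593 to 74839592), had 5 positions and read 22.8%, 23.1% and 20% in exercised samples, against 17.3%, 19.9% and 18.4% in sedentary samples. The lowest exercised and the highest sedentary value were nearly equal, and the difference was 3.45 points (SE 1.24, edgeR unadjusted p = 0.118). The 4 positions that were not stand-alone read 2.88% ± 1.32 in exercised and 0.423% ± 0.366 in sedentary samples (edgeR unadjusted p = 0.0105, adjusted p = 1.0). Among these 4, different positions carried the methylated reads of different samples. A position with 7 of 61 reads methylated in exercised sample 1 had 0 of 63 and 0 of 36 in exercised samples 2 and 3. Another had 8 of 63 in exercised sample 2, against 1 of 62 and 1 of 34 in exercised samples 1 and 3. Wnt2b, in the same setting, read 2.16% ± 0.274 in exercised and 1.10% ± 0.532 in sedentary samples (edgeR unadjusted p = 0.0369), and the Wnt5a region of 25 positions 2.92% ± 1.69 in exercised and 1.17% ± 0.350 in sedentary muscle (edgeR unadjusted p = 0.0492). In the Wnt5a region, exercised sample 1 stood apart at 4.87%, and the other exercised samples read 2.05% and 1.84%. Most methylated reads behind that 4.87% came from 1 position, with 27 of 87 reads methylated in exercised sample 1. At this position exercised samples 2 and 3 had 1 of 46 and 0 of 17, and each sedentary sample had 0.

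Axin1 (chromosome 17, 26273631 to 26276630) read 24.2%, 21.2% and 19.6% in exercised samples, against 21.0%, 17.0% and 17.5% in sedentary samples. The groups overlapped, and the difference of 3.19 points (SE 1.85, edgeR unadjusted p = 0.0661) was 0.379 points without stand-alone positions and 1.93 points without exercised sample 1. Wif1, a secreted protein that binds Wnt ligands (chromosome 10, 120469060 to 120472059), read 20.2%, 22.4% and 15.4% in exercised samples, against 18.9%, 14.2% and 16.2% in sedentary samples. Its difference of 2.89 points (SE 2.46, edgeR unadjusted p = 0.155) was 0.472 points without stand-alone positions. It was 1.38 without exercised sample 2, 1.77 without sedentary sample 2 and 4.83 without exercised sample 3.

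Toward lower levels, the leading regions were Rspo4, Wnt8a, Wnt7b, Tcf7l1 and Dkk1. Rspo4, an R-spondin known in humans for its part in nail development (chromosome 2, 151666663 to 151669662), read 17.9%, 17.9% and 18.9% in exercised samples, against 20.6%, 20.5% and 19.2% in sedentary samples. The groups did not overlap, with a difference of -1.90 points (SE 0.547, edgeR unadjusted p = 0.0695, adjusted p = 1.0). Its 24 positions that were not stand-alone read 1.20%, 1.70% and 1.72% in exercised samples, against 3.72%, 2.53% and 2.14% in sedentary samples, which differ by -1.26 points (SE 0.504, edgeR unadjusted p = 0.0381, adjusted p = 1.0).

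Wnt8a, on chromosome 18, read 70.4%, 82.6% and 75.6% in exercised samples, against 87.7%, 82.9% and 86.3% in sedentary samples. It had the largest difference in size of the 54 regions, -9.45 points (SE 3.81, edgeR unadjusted p = 0.0763, adjusted p = 1.0), on 3 positions, with exercised sample 2 and sedentary sample 2 nearly equal. The 3 positions differed by -1.85, -9.62 and -16.7 points. Wnt7b, a ligand of lung and placenta development (chromosome 15, 85410160 to 85413159), read 21.7%, 22.6% and 22.1% in exercised samples, against 24.2%, 22.9% and 24.0% in sedentary samples. The difference of -1.58 points (SE 0.460, edgeR unadjusted p = 0.162) was -0.153 points without its 21 stand-alone positions.

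Tcf7l1 (chromosome 6, 72737951 to 72740950) read 24.0%, 27.5% and 25.6% in exercised samples, against 31.5%, 25% and 29.8% in sedentary samples. Sedentary sample 2 lay within the exercised range, and the difference of -3.05 points (SE 2.18, edgeR unadjusted p = 0.164) was -1.70 without sedentary sample 1, -4.91 without sedentary sample 2, and 0.0657 with only those positions kept that had 20 or more reads in each sample. Dkk1 (chromosome 19, 30622987 to 30625986) read 35.8%, 40.8% and 40.7% in exercised samples, against 41.1%, 41.0% and 47.6% in sedentary samples. The groups were separated by less than 1 point, and the difference of -4.12 points (SE 2.76, edgeR unadjusted p = 0.247) was -2.46 without exercised sample 1 and -1.92 without sedentary sample 3. Wnt4, a ligand of kidney and gonad development, was the remaining region without overlap, at 19.7% ± 0.590 in exercised and 20.5% ± 0.15 in sedentary samples.

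Single positions gave the same picture. Of the 1759 positions of Wnt gene regions that had both methylated and unmethylated reads, 0 passed adjustment in edgeR (0% of 253960 in the table, smallest adjusted p = 0.919 in the Wnt genes), and 0 did so with limma. At an unadjusted p under 0.05 edgeR gave 53 positions (3.01%), 27 higher and 26 lower, against 3.32% over the table. In limma 62 of 1759 were under that limit, against 9068 of 253960 (3.57%) over the table. The authors' deposited table gave an unadjusted p under 0.05 for 54 of these positions (3.07%), 30 higher and 24 lower, against 3.13% of all positions.

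Of the 10 positions with the smallest p, 5 per direction, 6 were at 0% in all samples of 1 group. Upstream of Wnt3a, a canonical ligand, 1 strand of a CpG at 52 bases from the start had 5 of 26, 3 of 45 and 1 of 42 reads methylated in exercised samples, and 0 of 87, 0 of 72 and 0 of 12 in sedentary samples (edgeR unadjusted p = 0.00691). A count of 0 allows a level of up to 3.45%, 4.17% and 25% at these sedentary depths, which covers counting error only. The other strand of this CpG read 0%, 2.53% and 0% in exercised samples, against 1.22%, 7.53% and 0% in sedentary samples. A Lef1 position had 13 of 31, 3 of 37 and 0 of 23 in exercised samples, and 0 of 35, 0 of 45 and 0 of 18 in sedentary samples. In Wnt2b, 1 strand of a CpG at 20 bases downstream of the start had 11 of 25, 6 of 40 and 1 of 32 reads methylated in exercised samples, and 1 of 52, 0 of 31 and 0 of 38 in sedentary samples. The other strand averaged 0.957% in exercised and 3.54% in sedentary samples for Lef1, and 0.815% in exercised and 2.29% in sedentary samples for Wnt2b. On the strands named for these 3 genes, exercised sample 1 was highest and exercised sample 3 lowest of the exercised samples.

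Positions of Lrp6 and Dvl3 completed the higher group, at 12.3% ± 9.51 in exercised and 0% in sedentary samples for Lrp6 and 11.5% ± 4.48 in exercised and 1.91% ± 3.31 in sedentary samples for Dvl3. In the other direction, 1 strand of an Rspo4 CpG at 23 bases upstream had 2 of 89, 0 of 88 and 1 of 67 reads methylated in exercised samples, and 38 of 114, 7 of 56 and 0 of 23 in sedentary samples. Its sedentary values ran over a range of 33.3 points, and the other strand read 1.89%, 0% and 1.72% in exercised samples, against 8.13%, 1.10% and 0% in sedentary samples. Positions of Wnt5b, Wnt7b and Sfrp1 had 0 methylated reads in the exercised samples and averaged 3.68%, 5.05% and 2.58% in the sedentary samples. An Apcdd1 position read 77.8%, 96.9% and 76.3% in exercised and 100% in each sedentary sample. The other strand was listed for 7 of the 10 positions, and its group means differed in the same direction for 2, in the other direction for 4 and were 0% in both groups for 1. The adjusted p of these 10 positions was 0.919 in edgeR, and unadjusted p ran up to 0.0128.

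The authors' deposited table classes 5 positions of Wnt gene regions as strongly changed, a class chosen by the size and p of this same contrast. The share of all positions in these classes was not counted, so whether 5 is many or few cannot be said. The Znrf3 position, classed as hypermethylated, read 66.7%, 45.5% and 58.4% in exercised samples, against 28.7%, 32.2% and 33.6% in sedentary samples (p = 0.0159 in the authors' deposited table). Those of Wnt3, Axin1, Apcdd1 and Lgr4, classed as hypomethylated, averaged 53.7%, 38.5%, 62.7% and 47.7% in exercised samples, against 76.6%, 61.5%, 92.6% and 77.3% in sedentary samples, with p from 0.0172 to 0.0465 in the authors' deposited table. The groups did not overlap at any of the 5, which a choice by size and p favours, and of these 4 were stand-alone. The Wnt3 and Lgr4 positions, the only 2 of the 5 that could be placed, lay at CCGG, and in edgeR the adjusted p of all 5 was 0.919.

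Genes of the pathway outside the name pattern had a similarly low median level and no call after adjustment. Of 91 listed, 67 were measured, with a median level of 20.2%, or 2.19% without stand-alone positions (range 0.815% to 56.1%). Levels were higher in exercised samples in 34 and lower in 33, with a median difference of 0.109 points, and 0 passed adjustment in edgeR, while 1 was higher and 1 lower at an unadjusted p under 0.05, against 1.46% higher and 0.908% lower of all regions (limma gave 0 adjusted). Over all regions of the table, 6117 of 10021 were higher in exercised samples. By role, 5 of 6 genes of turnover (the tankyrases, Btrc, Fbxw11, Usp34 and Rnf146) and 5 of 14 nuclear partners were higher. So were 7 of 15 antagonists, 2 of 3 genes of ligand secretion and modification and 2 of 4 alternative receptors. Kinases such as Gsk3b and the casein kinases were higher in 4 of 8, planar polarity genes in 4 of 7, and target genes such as Myc and Ccnd1 in 5 of 10.

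The gene with the smallest p among them was Tmem88, a membrane protein that binds Dishevelled, at 61.7%, 62.6% and 66.2% in exercised samples, against 49.3%, 51.7% and 45.0% in sedentary samples. All exercised values lay above all sedentary ones, and its edgeR adjusted p was 0.5 (unadjusted p = 9.98e-05). Tmem88 had 0 stand-alone positions, so its 19 positions and levels were the same in the fit without such positions. In that fit its edgeR unadjusted p was 0.0283, so the small p depended on the other regions fitted with it. Kremen1, a Dickkopf receptor, followed with 30.3% ± 3.84 in exercised and 26.2% ± 3.63 in sedentary samples (edgeR unadjusted p = 0.104). On the lower side, Igfbp4, a secreted protein that binds growth factors and Frizzled, read 27.5%, 26.6% and 28.6% in exercised samples, against 30.3%, 32.0% and 33.8% in sedentary samples, without overlap (edgeR unadjusted p = 0.0216, adjusted p = 1.0). Cxxc5, a zinc finger protein that binds Dishevelled, read 6.70% ± 1.16 in exercised and 9.25% ± 2.24 in sedentary samples (edgeR unadjusted p = 0.0596).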

How the data were processed

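Methylation was measured by RRBS in 6 quadriceps muscle samples, 3 from exercised and 3 from sedentary mice. Build mm9 is named in the submitters' processing notes, as are Bismark 0.7.7, Bowtie 0.12.9, cutadapt 1.0 and Trim Galore 0.2.5. How regions were chosen is not stated there. The authors deposited, per position and sample, a methylated fraction and a coverage count, which was at least 10 reads. They also deposited a score (the difference of the group means of these fractions), an unadjusted p-value and a class. Fraction times deposited coverage count was whole within 0.00236 of a read and gave methylated and unmethylated counts. Total coverage was 14556783, 17815556 and 16415619 calls in the exercised libraries and 15509309, 18656340 and 9153526 in the sedentary ones. The labels name no molecular identifiers.

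Counts were summed per region and tested with edgeR 4.0.16 under R 4.3.3 by its quasi-likelihood test. The model had a term for each sample and a group term on methylated counts, with no dispersion trend. Benjamini-Hochberg adjustment ran over all 10021 regions or 253960 positions at 0.05. As a further tool, limma 3.58.1 was run on M values with an offset of 2. ± gives the SD, and SE is that of the difference between group means. Symbols were matched by RefSeq transcript (GRCm38.p6).

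The members and lists were chosen with earlier results of these data known. Named were the 5 regions and 5 positions per direction with the smallest p, the highest and lowest region of each role and 2 other pathway genes per direction. Wnt2, the regions of Wnt5a, Lrp5, Lrp6, Apc and Wnt4, the second setting of Wnt2b, the printed promoters and the positions in the authors' strong classes were chosen after their values were seen. Alternatives were the replicate number as a block, omission of each sample in turn, a minimum of 20 reads, at least 1 or 5 positions, no stand-alone positions, limma, mean position levels, quantile normalization and merged strands.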

Additional observations from a re-analysis of the deposited data

How the results depend on the processing

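No Wnt gene region and no single position of one passed adjustment under any alternative run. Of 138 values of the 10 leading regions, 137 kept their direction and 0 passed the threshold. The smallest adjusted p among them was 0.804 (edgeR), shared by Axin1, Dvl1, Rspo4 and Wif1 without exercised sample 3. The replicate block, limma on M values and the minimum of 1 or 5 positions left the levels of tested regions unchanged. Direction was fixed in those settings, and for some regions, such as Dkk1, also at 20 reads and without stand-alone positions. The count of 137 therefore overstates how far direction was put to a test. The Tcf7l1 difference turned to 0.0657 points at a coverage of at least 20. The count of 2 regions at an unadjusted p under 0.05 (2.37% of all regions) was 0 of 47 at that coverage (2.21% of all), 5 without stand-alone positions (4.53%) and 4 with mean position levels (3.83%). When a sample was left out it ran from 1 to 3, while the share of all regions ran between 1.69% (exercised sample 1 left out) and 6.00% (exercised sample 3 left out). It was 1 without exercised sample 1 or 2 or sedentary sample 2 or 3. For the other pathway genes this count, 2, was 5 without stand-alone positions, 4 with mean position levels, 4 with quantile normalization (4.07% of all regions) and from 2 to 4 when a sample was left out. The count of 53 single positions (3.32% of all positions) ran from 24 without exercised sample 3 to 47 without sedentary sample 1 (1.82% and 2.87% of all). Deviations of same-numbered samples had correlations of 0.0190, -0.219 and -0.111, and those of unlike-numbered samples ran from -0.101 to 0.221. These values are of similar size, so they cannot decide whether the numbers pair the samples. With a replicate block the counts were 1 region, Axin1 (unadjusted p = 0.0293; 2.04% of all regions), and 8 positions (0.729% of all), with 0 adjusted, and unadjusted p was 0.0504 for Dvl1 and 0.0687 for Lgr6. With the strands of a CpG merged, 1 position of the table passed adjustment, outside the Wnt genes. Without 1 sample, median differences of the 54 regions ran from -0.179 (without exercised sample 1) to 0.783 points, and of the other pathway genes from -0.196 to 0.475. Depth limits sedentary sample 3 most (median of 29 reads in these regions), and regions with 3 to 7 positions (Wnt8a, Dkkl1, Dkk1, Dkk3, Wnt10a, Sfrp5 and the smaller regions of Ctnnb1 and Wnt5a) rest on few CpGs.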
